A study of Homo sapiens with 24 samples.

Results

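This account covers the collagens, the laminins and a group of matrix proteoglycans and glycoproteins in Panc-1 cells, an established human pancreatic ductal adenocarcinoma (PDAC) line. Members were chosen by gene symbol and not by a cut on their values, although earlier results of these data were known. They are every numbered collagen chain, every laminin chain, and BGN, DCN, LUM, SPARC, FBN1, FBN2, VCAN, HSPG2, AGRN, NID1 and NID2. Of the 14413 genes listed in at least 1 of the 3 deposited count tables, 47 were members, and 34 members were listed in all 3 tables. The remaining 20 of the 67 symbols in the 13 classes, among them COL1A2, COL4A1, DCN and LUM, were not analysed here.

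Polyadenylated RNA was sequenced from 3 stable Panc-1 lines, each an individual puromycin-selected clone screened for induction from a bidirectional tetracycline-inducible vector. Tet-One carried the empty vector, Tet-MIST1 carried a Myc-tagged rat MIST1 reading frame and Tet-PTF1a a Myc-tagged mouse PTF1a reading frame. MIST1 and PTF1a are transcription factors of pancreatic acinar cells. Each line was grown without doxycycline (Control) or with doxycycline at 1 µg/ml for 72 h (Dox), with 4 libraries per condition and 24 in all, at passage 32 for Tet-One and Tet-PTF1a and at passage 33 for Tet-MIST1. Each line being 1 clone, a difference between lines cannot be told apart from a difference between clones. In bulk RNA, fewer cells that express a gene and less RNA of it per cell cannot be told apart.

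Collagens are trimers of alpha chains. Fibrillar collagens form the cable-like fibrils of the interstitial matrix, fibril-associated collagens decorate them, and collagen IV and the laminins form the 2 networks of the basement membrane, which perlecan (HSPG2), agrin (AGRN) and nidogen (NID1) tie together. A laminin is a cross-shaped trimer of 1 alpha, 1 beta and 1 gamma chain. PDAC is known for a dense stroma, much of it laid down by stellate cells and fibroblasts, while the carcinoma cells themselves make basement membrane components and some fibrillar collagen.

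The libraries held 33402628 to 42510942 counts in Tet-MIST1, 35863825 to 41648040 in Tet-One and 17210989 to 43018494 in Tet-PTF1a. The human PTF1A gene was listed for Tet-PTF1a only, at 0 to 2 counts in Control and 53 to 168 in Dox. BHLHA15, the human gene for MIST1, was likewise listed for Tet-PTF1a only, at 2 to 16 counts in Control and 12 to 22 in Dox, so induction of MIST1 was not checked in Tet-MIST1 by these tables. All 6 epithelial markers (EPCAM, KRT7, KRT8, KRT18, KRT19 and CDH1) were listed in every line, no endothelial marker was listed, and the 4 of 9 fibroblast and stellate markers listed summed to between 22.9 and 73.4 CPM (read counts scaled to library size) in any library. One library, Tet-One Dox replicate 1, stood apart most. It was the lowest of the 8 Tet-One libraries for 24 of 39 members, and in it genes of at least 5000 exon bases were shifted by -0.53 on the log2 scale against shorter genes, while the other 7 Tet-One libraries lay between 0.02 and 0.12. With it the biological coefficient of variation of Tet-One was 14.4%, and without it 4.79%. Tet-MIST1 had 6.58% and Tet-PTF1a 2.80%. Tet-MIST1 Dox replicate 1 also stood apart, to a lesser degree, and was the lowest library of its line for 14 of 39 members. Counts of calls within Tet-One and in comparisons with Tet-One are given with and without Tet-One Dox replicate 1. The fit over all 24 libraries used below was run only with it.

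With Dox, 30 of the 42 members tested changed in Tet-PTF1a, 13 upward and 17 downward, at an FDR under 0.05 in the quasi-likelihood test of edgeR. Over all 14053 genes tested in this line, 23.8% were called higher and 24.4% lower, 48.2% in all, against 71.4% of the members. Of the 42 members 31 had at least 5000 exon bases. Among all 3487 genes of that length 28.4% were called higher and 27.6% lower, and the part of length in the members' share was not tested. A gene was tested where it passed 0.5 CPM in at least 4 of the 8 libraries of a line, and all 42 members listed for Tet-PTF1a did. BGN and COL10A1 had Control libraries under 0.5 CPM and were tested only because of their Dox libraries. COL13A1 was tested only because of its Control libraries. The median change of the members was -0.05 on the log2 scale and that of all genes 0.00, while the median size of change, regardless of direction, was 0.33 for members and 0.12 for all genes. Among the collagens 9 of 27 rose and 8 fell, among the laminins 2 of 8 rose and 5 fell, and among the remaining members 2 of 7 rose and 4 fell. A change of at least 1 on the log2 scale was seen in 8 members. BGN, COL5A3, COL10A1 and COL3A1 rose and COL13A1, COL21A1, COL1A1 and COL7A1 fell by that much, a size that 2.04% of all genes reached upward and 1.52% downward.

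**Figure D1:**
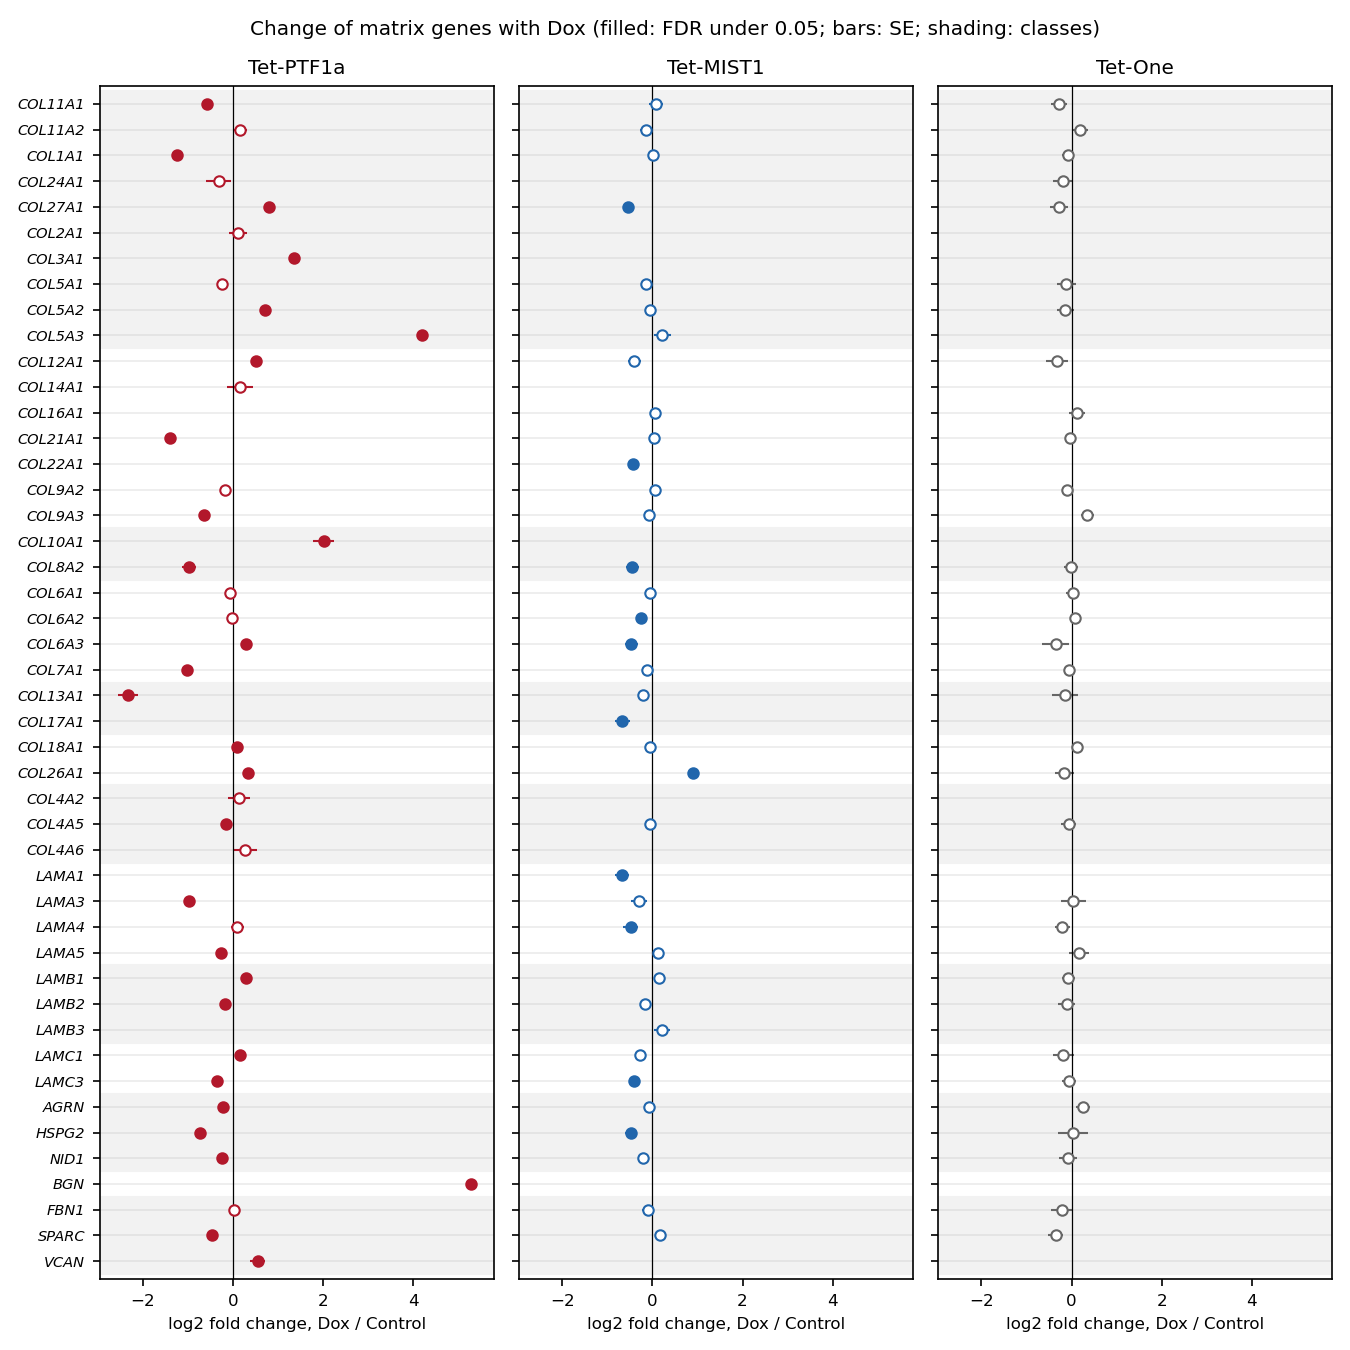
Log2 fold change of the members tested, 1 of them left out, Dox over Control, in the 3 lines, with genes on the vertical axis grouped by class (shaded bands) and the SE as a bar. Filled points have an FDR under 0.05 and open points do not. Tet-PTF1a has 29 filled points on both sides of 0, Tet-MIST1 has 11, of which 10 lie below 0, and Tet-One has none.

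In 29 members the Tet-PTF1a Dox libraries did not overlap the Control libraries in CPM, 13 lying above and 16 below, against 27% and 16.9% of all genes. The summed level of all members moved little by comparison. It lay between 3143 and 3189 CPM in the 4 Control libraries and between 3054 and 3117 CPM in the 4 Dox libraries with no overlap. CPM are counts scaled with the TMM factors of each line. The summed epithelial markers of Tet-PTF1a also moved, from 3198 to 3380 CPM in Control to 1439.9 to 1497 CPM in Dox, with KRT8, KRT18, KRT19 and EPCAM lower and CDH1 and KRT7 higher. Both leukocyte markers listed, CD68 and CD14, fell as well, from a sum of 63.6 to 69.6 CPM to 31.0 to 35.8 CPM, CD14 staying under 1 CPM in every library. The part of these shifts in the matrix results was not tested.

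Fibrillar collagens were the class with the widest spread of responses in Tet-PTF1a. Of 10 tested, COL5A3, COL3A1, COL27A1 and COL5A2 rose, COL1A1 and COL11A1 fell, and COL2A1, COL5A1, COL11A2 and COL24A1 did not pass the test. Of all genes of this line 23.8% were called higher and 24.4% lower. COL5A3, a chain of the type V collagen that seeds fibrils (hg19 chr19:10070237-10121147), stood at 0.542, 0.616, 0.893 and 0.630 CPM in the Control libraries and at 12.7, 12.3, 13.0 and 14.0 CPM in the Dox libraries. The groups were far apart, from 11 to 24 counts in Control and 222 to 461 in Dox, and the fitted change was 4.20 (SE 0.12, FDR 2.04e-33), or 18.3-fold. COL5A2, a second type V chain, was already well expressed and rose from 141 ± 3.02 to 229 ± 5.81 CPM (SD, n = 4), 1.63-fold. COL5A1, the third type V chain, stood at 3.95 ± 0.611 CPM in Control and 3.44 ± 0.306 CPM in Dox, with overlapping groups (FDR 0.085). Of the type V chains, COL5A3 and COL5A2 were thus called higher and COL5A1 was not called. The chains were not tested against each other.

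COL3A1, the type III collagen of reticular fibres, was at 6.70, 6.27, 6.90 and 5.56 CPM in Control and at 16.9, 15.7, 16.1 and 16.4 CPM in Dox. The groups did not overlap and the change was 1.35 (SE 0.071, FDR 3.25e-22), 2.56-fold. COL27A1, a cartilage-associated fibrillar collagen, rose from 5.11 ± 0.608 to 9.23 ± 0.784 CPM, 1.74-fold. COL1A1, the alpha 1 chain of type I collagen and the main protein of scar and tumour stroma (hg19 chr17:48261457-48279000), went the other way, from 153, 149, 156 and 155 CPM in Control to 65.8, 64.3, 64.6 and 63.3 CPM in Dox. The replicates lay within a few percent of each other and the fall was -1.25 on the log2 scale (SE 0.029, FDR 3.03e-37), with Control 2.38-fold above Dox. COL11A1, a chain of the type XI collagen of thin fibrils, fell from 63.5 ± 1.51 to 42.4 ± 1.52 CPM. Among the most abundant fibrillar chains, then, COL1A1 was the highest before Dox and COL5A2 the highest after it, at 33.1 ± 0.839 CPM per kilobase of exon against 10.9 ± 0.168 for COL1A1.

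**Figure D2:**
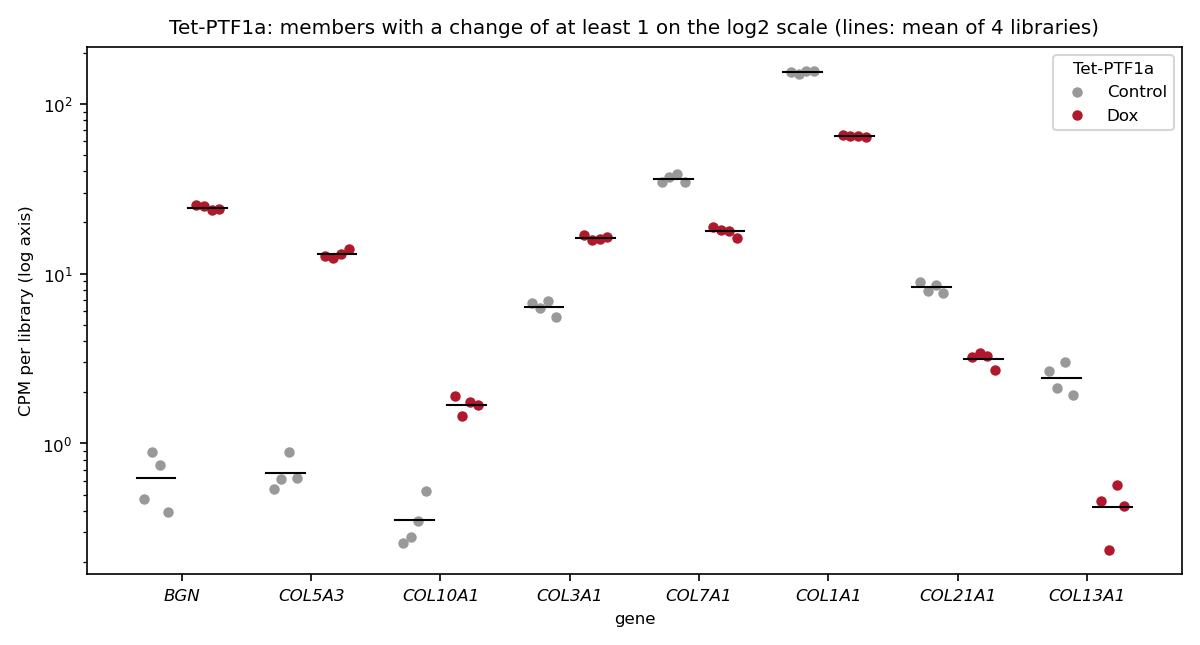
CPM of each Tet-PTF1a library on a log axis for the 8 members with a change of at least 1 on the log2 scale, 4 Control libraries in grey and 4 Dox libraries in red, with a line at the mean of each group. In all 8 genes the Control and Dox libraries are apart, from 0.626 to 24.5 CPM on average for BGN and from 153 to 64.5 CPM for COL1A1.

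BGN, which encodes biglycan, a small leucine-rich proteoglycan that binds collagen fibrils and the only member of its class analysed here, rose more than any other member of Tet-PTF1a. It was at 0.472, 0.896, 0.744 and 0.394 CPM in Control and at 25.4, 24.9, 23.7 and 23.9 CPM in Dox, or 15 to 20 counts against 442 to 784. The Dox libraries lay within 2 CPM of each other, far above Control, and the change was 5.27 (SE 0.11, FDR 1.86e-39), 38.6-fold. BGN (hg19 chrX:152760347-152775004) was listed for Tet-PTF1a only, so its response has no counterpart in the other lines.

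The promoter sequences of these genes are shown because PTF1a and MIST1 both belong to the basic helix-loop-helix factors, which bind E boxes (CANNTG, a pattern that reads alike on both strands), and because PTF1a in its acinar complex binds an E box together with a TC box (TGGGAAA, searched on both strands). CAGCTG is one form of the E box and is counted within it. The 250 bases before the start of transcription were taken from the RefSeq promoter table (GRCh38.p14), which matched 35 members with 48 promoters and held none for the other 12, COL1A1 and COL3A1 among them. The 4 shown were picked among members called in Tet-PTF1a with exactly 1 matched promoter. They are COL5A3 and BGN, which rose most, and COL13A1 and COL7A1, which fell most. COL21A1 fell more than COL7A1 but matched more than 1 promoter. Each is written 5′ to 3′ on the strand of the gene, at chr19:10010505-10010754 (minus) for COL5A3, chrX:153494730-153494979 (plus) for BGN, chr10:69801656-69801905 (plus) for COL13A1 and chr3:48595330-48595579 (minus) for COL7A1, and capitals mark E boxes and TC boxes.
COL5A3: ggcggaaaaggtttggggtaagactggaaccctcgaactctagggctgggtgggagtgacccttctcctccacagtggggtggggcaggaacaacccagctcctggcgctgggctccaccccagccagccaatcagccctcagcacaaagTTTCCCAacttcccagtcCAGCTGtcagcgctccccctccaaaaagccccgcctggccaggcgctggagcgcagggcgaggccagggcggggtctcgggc
BGN: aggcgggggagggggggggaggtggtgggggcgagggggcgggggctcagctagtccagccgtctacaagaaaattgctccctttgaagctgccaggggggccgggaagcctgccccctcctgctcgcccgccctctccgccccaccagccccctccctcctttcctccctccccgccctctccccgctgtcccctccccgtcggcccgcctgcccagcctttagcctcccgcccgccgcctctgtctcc
COL13A1: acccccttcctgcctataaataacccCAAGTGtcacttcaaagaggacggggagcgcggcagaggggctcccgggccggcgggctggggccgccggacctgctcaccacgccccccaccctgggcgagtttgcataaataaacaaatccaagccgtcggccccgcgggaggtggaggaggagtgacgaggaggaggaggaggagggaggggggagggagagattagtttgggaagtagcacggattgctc
COL7A1: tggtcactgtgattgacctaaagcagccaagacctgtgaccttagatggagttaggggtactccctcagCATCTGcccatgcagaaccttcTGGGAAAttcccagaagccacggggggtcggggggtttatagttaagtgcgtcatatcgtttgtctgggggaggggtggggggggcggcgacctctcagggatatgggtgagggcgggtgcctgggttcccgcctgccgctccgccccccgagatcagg
COL5A3 held a CAGCTG E box that began 82 bases before the start and a TC box that began 100 bases before it, their midpoints 17.5 bases apart. COL7A1 held an E box and a TC box with midpoints 22.5 bases apart, and COL13A1 held an E box 224 bases before its start. In the window of BGN neither set of letters occurred. An E box was found in 25 of the 48 member promoters, or 52.1%, against 61.8% of all 35116 promoters, the CAGCTG form in 10.4% against 14.0%, and a TC box in 4, or 8.33%, against 6.88%. Both boxes together, at any distance, occurred in 3 member promoters, those of COL5A3, COL7A1 and COL21A1, and in 4.47% of all promoters. Of these 3 genes 1 rose and 2 fell in Tet-PTF1a. In COL21A1 the midpoints lay 104.5 bases apart. The study's own PTF1a motif asks for midpoints 1 or 2 turns of the DNA helix apart, a spacing that was not required here. A match describes letters in a window and is not a binding site.

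The fibril-associated collagens moved in both directions in Tet-PTF1a, with 1 of 5 higher, 2 lower and 2 not called. The shares of all genes were 23.8% higher and 24.4% lower. COL21A1 fell from 8.94, 7.90, 8.58 and 7.74 CPM in Control to 3.22, 3.39, 3.30 and 2.71 CPM in Dox. Control was 2.64-fold above Dox with no overlap (log2 change -1.40, SE 0.099, FDR 1.90e-17). COL9A3, a chain of the type IX collagen that coats cartilage fibrils, fell from 24.8 ± 0.647 to 15.7 ± 1.17 CPM, while its partner chain COL9A2 was at 8.88 ± 1.04 and 7.79 ± 0.785 CPM with overlapping groups (FDR 0.083). COL12A1, which lies along type I fibrils, rose from 22.1 ± 0.316 to 31.8 ± 1.93 CPM, 1.43-fold. COL14A1 stood at 0.593 ± 0.207 and 0.637 ± 0.169 CPM and did not pass the test.

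COL10A1, the network collagen of hypertrophic cartilage, was rare in Control, at 0.259, 0.280, 0.347 and 0.525 CPM or 5 to 20 counts. In Dox it was at 1.90, 1.46, 1.75 and 1.68 CPM or 31 to 55 counts. The groups were apart and the change was 2.00 (SE 0.24, FDR 4.60e-11), 4.01-fold, on levels that stayed under 2 CPM. COL8A2, a chain of the hexagonal type VIII network, fell from 2.65 ± 0.192 to 1.33 ± 0.134 CPM, so the 2 network collagens tested went opposite ways.

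COL13A1, a collagen that spans the plasma membrane and sits at sites of cell adhesion, had the largest fall of any member. It went from 2.66, 2.13, 3.03 and 1.94 CPM in Control to 0.459, 0.236, 0.567 and 0.426 CPM in Dox, from 38 to 113 counts down to 5 to 14. Control was 5.04-fold above Dox (log2 change -2.33, SE 0.23, FDR 1.71e-13). COL7A1, the collagen of the anchoring fibrils that fasten a basement membrane to the stroma beneath, was at 34.5, 37.0, 38.7 and 34.7 CPM in Control and 18.9, 18.0, 17.8 and 16.2 CPM in Dox. Every Dox library lay below every Control library, 2.04-fold on average (log2 change -1.03, SE 0.051, FDR 2.60e-23). Of the 3 chains of the type VI collagen of beaded microfilaments, COL6A3 rose from 3.15 ± 0.302 to 3.92 ± 0.223 CPM, COL6A1 was at 29.0 ± 1.19 and 27.6 ± 2.11 CPM and COL6A2 at 36.1 ± 0.956 and 35.3 ± 0.571 CPM, neither of the last 2 passing the test.

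COL18A1, the basement membrane collagen whose end fragment is endostatin, was the most abundant member per length in all 3 lines. In Tet-PTF1a it was at 1106, 1071, 1090.0 and 1094 CPM in Control and 1155, 1162, 1159 and 1187 CPM in Dox. The rise was 1.07-fold (log2 change 0.10, SE 0.019, FDR 2.92e-05), with the groups apart. COL26A1 rose from 5.56 ± 0.996 to 7.39 ± 0.660 CPM, 1.26-fold. Among the chains of collagen IV, the sheet-forming collagen of basement membranes, COL4A5 fell from 19.7 ± 1.33 to 17.7 ± 1.13 CPM with overlapping groups (FDR 0.016), and COL4A2 and COL4A6, both under 2 CPM in every library, did not pass. COL4A5 was no longer called with DESeq2 (adjusted p 0.056), when only total counts were used for scaling, in a single fit over the 24 libraries of all lines, or without Dox replicate 4 (FDR 0.11).

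Of 8 laminin chains tested in Tet-PTF1a 5 were called lower and 2 higher, where 24.4% and 23.8% of all genes were, and the direction of the group was not tested. LAMA3, an alpha chain of the laminin at epithelial hemidesmosomes, was at 4.34, 4.31, 5.21 and 4.78 CPM in Control and 2.30, 2.40, 2.52 and 2.13 CPM in Dox. Every Dox library was below every Control library, 1.97-fold on average (FDR 7.34e-10). The abundant chains moved less. LAMA5, the main epithelial alpha chain, fell from 252 ± 5.48 to 208 ± 9.27 CPM, LAMB2 fell from 129 ± 1.01 to 114 ± 4.61 CPM, and LAMC3 fell from 38.8 ± 0.700 to 30.1 ± 0.973 CPM. LAMC1, the gamma chain of most laminins, rose from between 269 and 279.8 CPM to between 300.3 and 315 CPM, and LAMB1 rose from 114 ± 1.72 to 138 ± 3.02 CPM, 1.11-fold and 1.22-fold. LAMA4 was at 2.05 ± 0.274 and 2.24 ± 0.325 CPM and did not pass. The calls of LAMA5 (FDR 0.22), LAMB2 (FDR 0.39) and LAMC1 (FDR 0.61) were lost in the fit over 24 libraries.

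All 3 basement membrane linkers were called lower in the fit of Tet-PTF1a alone, where 24.4% of all genes were. The direction of this class was not tested. Of the linkers HSPG2 was still called in the fit over 24 libraries while NID1 (FDR 0.25) and AGRN (FDR 0.12) were not. HSPG2, perlecan, a heparan sulfate proteoglycan, was at 131, 136, 138 and 146 CPM in Control and 82.0, 82.7, 84.5 and 80.5 CPM in Dox. Control was 1.67-fold above Dox without overlap (log2 change -0.74, SE 0.031, FDR 9.13e-26). NID1 fell from 309.9 ± 8.93 to 262 ± 6.26 CPM and AGRN from 142 ± 5.20 to 121 ± 3.71 CPM. SPARC, a collagen-binding glycoprotein of remodelling tissue, fell from 72.6, 65.4, 61.2 and 68.5 CPM in Control to 50.8, 46.8, 48.2 and 48.4 CPM in Dox, 1.39-fold. VCAN, the large chondroitin sulfate proteoglycan versican, rose from 1.44 ± 0.122 to 2.22 ± 0.509 CPM. FBN1, the main microfibril protein, stood at 5.68 ± 0.328 and 5.84 ± 0.517 CPM and did not pass.

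The counts of calls in Tet-PTF1a stayed between 11 and 13 higher and between 16 and 18 lower when any of its 8 libraries was left out. In these fits 44.0% to 46.1% of all genes were called. A fit over all 24 libraries shares the larger spread of Tet-One and holds only genes listed for all lines. It called 5 members higher and 12 lower of 34, all 17 of them also called in the fit of Tet-PTF1a alone. Of all 13519 genes in it 23.2% were called, against 48.2% of 14053 in the fit of Tet-PTF1a alone. Of the 26 calls that could be compared 9 were lost, those of AGRN, COL18A1, COL26A1, COL4A5, COL6A3, LAMA5, LAMB2, LAMC1 and NID1.

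With MIST1 induction 12 of 38 members tested changed, 1 upward and 11 downward, so 31.6% were called against 20.6% of all 13623 genes. Among all genes 11.9% were called higher and 8.77% lower. Among genes of at least 5000 exon bases, as 28 of the 38 members were, 5.61% were called higher and 15.7% lower. The median change of the members was -0.13 on the log2 scale and that of all genes -0.00. COL26A1 rose, 6 of 23 collagens and 4 of 10 laminins fell, HSPG2 fell, and the other 26 members did not pass the test. No member reached a change of 1 on the log2 scale, as 0.404% of all genes did upward and 0 of 13623 downward. The count of falling members depended on single libraries, being 6 when Control replicate 3 was left out and 7 when either Control replicate 1 or Dox replicate 3 was. The share of all genes called fell as well, from 20.6% to 10.5%, 10.7% and 15.5% in that order. Without Dox replicate 1, 3 members were called higher and 11 lower, and 25.8% of all genes were called.

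COL26A1 was at 2.72, 3.33, 3.09 and 3.02 CPM in the Tet-MIST1 Control libraries and at 6.10, 6.76, 4.66 and 5.58 CPM in the Dox libraries. The groups were apart and the change was 0.91 (SE 0.12, FDR 3.31e-04), 1.88-fold. LAMA1, the alpha chain of the laminin of early embryonic basement membranes, was at 2.24, 2.16, 2.10 and 1.90 CPM in Control and 0.915, 1.59, 1.36 and 1.36 CPM in Dox, from 68 to 92 counts down to 36 to 60. Control was 1.59-fold above Dox (log2 change -0.67, SE 0.15, FDR 0.0083), and Dox replicate 1 was the lowest. COL17A1, the transmembrane collagen of hemidesmosomes, was rare, at 0.916, 0.961, 0.709 and 0.811 CPM in Control and 0.508, 0.477, 0.509 and 0.573 CPM in Dox, and it also fell 1.59-fold (FDR 0.012). COL27A1, which rose in Tet-PTF1a, fell here from 6.95, 5.69, 6.76 and 6.46 CPM to 3.99, 3.87, 4.63 and 5.16 CPM. Its groups did not overlap, with Control 1.46-fold above Dox (log2 change -0.55, SE 0.10, FDR 0.0036).

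**Figure D3:**
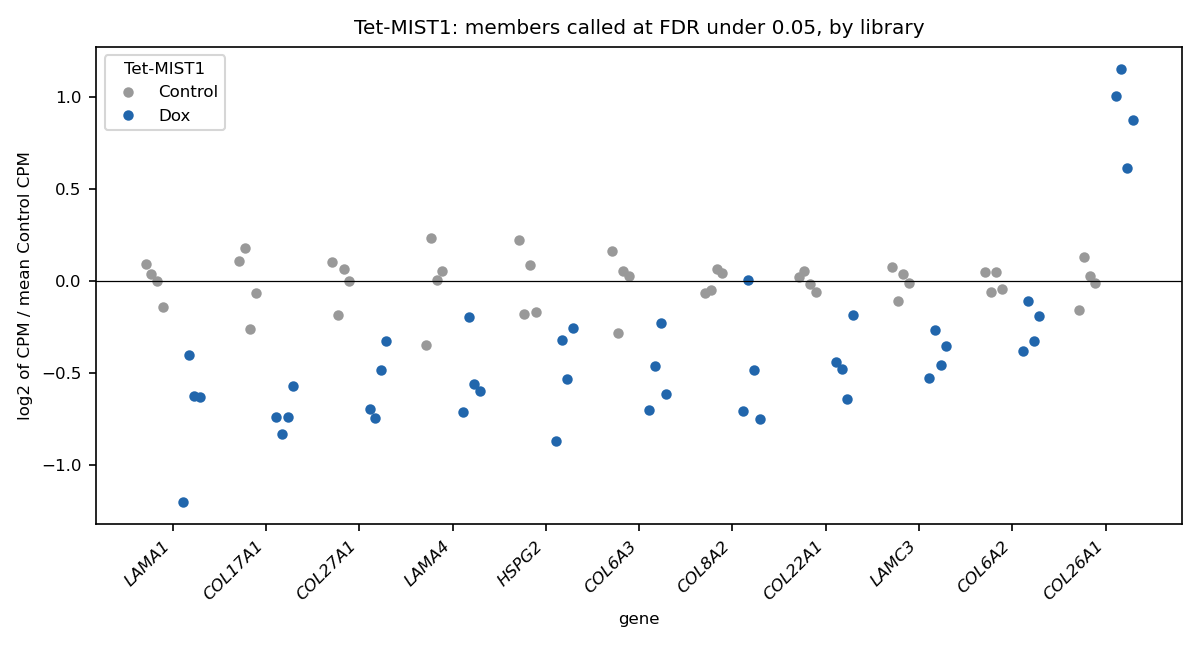
Of the 12 members called in Tet-MIST1, 11 are drawn, with each library's CPM as the log2 ratio to the mean of the 4 Control libraries, Control in grey and Dox in blue. COL26A1 is the gene whose Dox libraries lie above 0, and in LAMA4, COL6A3 and COL8A2 the Dox and Control libraries overlap.

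HSPG2 was the most abundant of the falling members of Tet-MIST1, at 577, 438, 526 and 441 CPM in Control and 272, 397, 343 and 415 CPM in Dox. The groups were apart by a small margin (1.39-fold, FDR 0.021). LAMC3 fell from 62.9 ± 3.34 to 47.8 ± 3.75 CPM, and LAMC1 was at 221 ± 9.43 and 184 ± 33.1 CPM and did not pass (FDR 0.095). COL22A1 fell from 8.96 ± 0.310 to 6.68 ± 0.896 CPM and COL6A2 from 54.7 ± 2.25 to 46.1 ± 3.99 CPM. LAMA4, COL6A3 and COL8A2 were called lower with overlapping groups, at changes of -0.48, -0.47 and -0.44. The call of COL8A2 (FDR 0.047) was lost with scaling by total counts and on removal of any Control replicate, Dox replicate 3 or Dox replicate 4, and that of COL6A2 on removal of Control replicate 1, Control replicate 3 or Dox replicate 3. With replicate number added to the fit as a block, HSPG2 (FDR 0.060), LAMA4 (FDR 0.051), COL6A2 (FDR 0.062), COL8A2 (FDR 0.068) and COL6A3 (FDR 0.078) were not called. In that fit 10.7% of all genes were. Of all members, 11 had Dox libraries entirely below Control and 1 entirely above, against 13% and 13.7% of all genes. COL1A1 stood at 66.3 ± 2.63 and 67.1 ± 6.51 CPM and COL5A3 at 0.539 ± 0.0852 and 0.634 ± 0.0891 CPM, and neither passed.

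Exon length moved with this result. Members had a median of 6431 exon bases in the Tet-MIST1 table against 3192 for all genes, and 28 of the 38 tested had at least 5000. The 3314 genes of that length had a median change of -0.10 and the shorter genes one of 0.03, and 9 of the 11 falling members were among the long genes. Tet-MIST1 Dox replicate 1 was shifted most, with long genes at -0.24 on the log2 scale against shorter ones, while the other 7 libraries lay between -0.04 and 0.11. After the trend with exon length was removed, 10 of the 12 calls stood, COL6A3 and LAMA4 were lost, COL13A1 (-0.21) was gained as lower, and LAMA5 (0.26, FDR 0.0037) and LAMB1 (0.23, FDR 4.22e-04) were gained as higher. In Tet-PTF1a the long and the shorter genes both had a median change of 0.00, and in this measure the libraries lay between -0.03 and 0.03.

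In Tet-One, which shows the effect of Dox without an induced factor, 0 of the 34 members tested passed, as did 0 of 13428 genes. Without Dox replicate 1 these were 0 members and 1 gene. At an unadjusted p under 0.05 edgeR gave 1 member, COL9A3, higher, and 2.99% of all genes, and DESeq2 called 0 members. COL9A3 was at 50.8 ± 6.25 CPM in Control and 64.7 ± 11.8 CPM in Dox (log2 change 0.35, SE 0.14, FDR 0.90). The groups of 1 tested member did not overlap, with Dox below Control, and 1.23% of all genes lay below in this way. No tested member lay above, as 1.24% of all genes did. The median change of members was -0.08 with all libraries and 0.04 without Dox replicate 1, so its direction turned on that library. HSPG2 shows how, with 36.4 CPM in Dox replicate 1 and 125, 108 and 130 CPM in the other Dox libraries, against 93.2 to 101 CPM in Control. COL17A1, COL22A1, COL5A3, LAMA1 and LAMB3 were listed for Tet-One but too low to be tested, LAMA1 at 0 or 1 count in every library, and in Tet-MIST1 the same was true of COL24A1 at 7 to 19 counts.

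The responses of the lines were then compared directly, by testing whether the effect of Dox depended on the line in the 16 libraries of each pair. Against Tet-MIST1, the Dox response of Tet-PTF1a was larger in 9 and smaller in 12 of 34 members, where larger means more upward or less downward, and 17.8% and 18.6% of all genes were called in those directions. With a difference of at least 1 as well there were 2 larger and 3 smaller members, against 1.78% and 1.69% of all genes. The widest gap was that of COL5A3 at 4.01 (SE 0.24, FDR 3.05e-11), followed by COL13A1 at -2.16 (SE 0.25), COL21A1 at -1.43 (SE 0.16), COL27A1 at 1.37 (SE 0.14) and COL1A1 at -1.25 (SE 0.071). COL27A1 and COL6A3 were called in opposite directions in the 2 lines, and COL6A3, with a change of 0.29 in Tet-PTF1a and -0.47 in Tet-MIST1, differed by 0.77 (SE 0.17, FDR 0.0011). Both calls of COL6A3 within a line were less firm, that in Tet-PTF1a being lost in the fit over 24 libraries (FDR 0.45) and that in Tet-MIST1 with the exon length trend removed (FDR 0.084). COL26A1 rose in both lines and rose less in Tet-PTF1a, by a difference of -0.55 (SE 0.17, FDR 0.014). HSPG2 and LAMC3 were called lower in both lines, HSPG2 in Tet-MIST1 with the loss given above. The difference did not pass the test for HSPG2 (-0.25, SE 0.15, FDR 0.20) or LAMC3 (0.05, SE 0.073, FDR 0.66). COL8A2 was called lower in both, in Tet-MIST1 with the losses given above, and its difference of -0.54 (FDR 0.044) was not called in 16 of 27 alternatives.

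**Figure D4:**
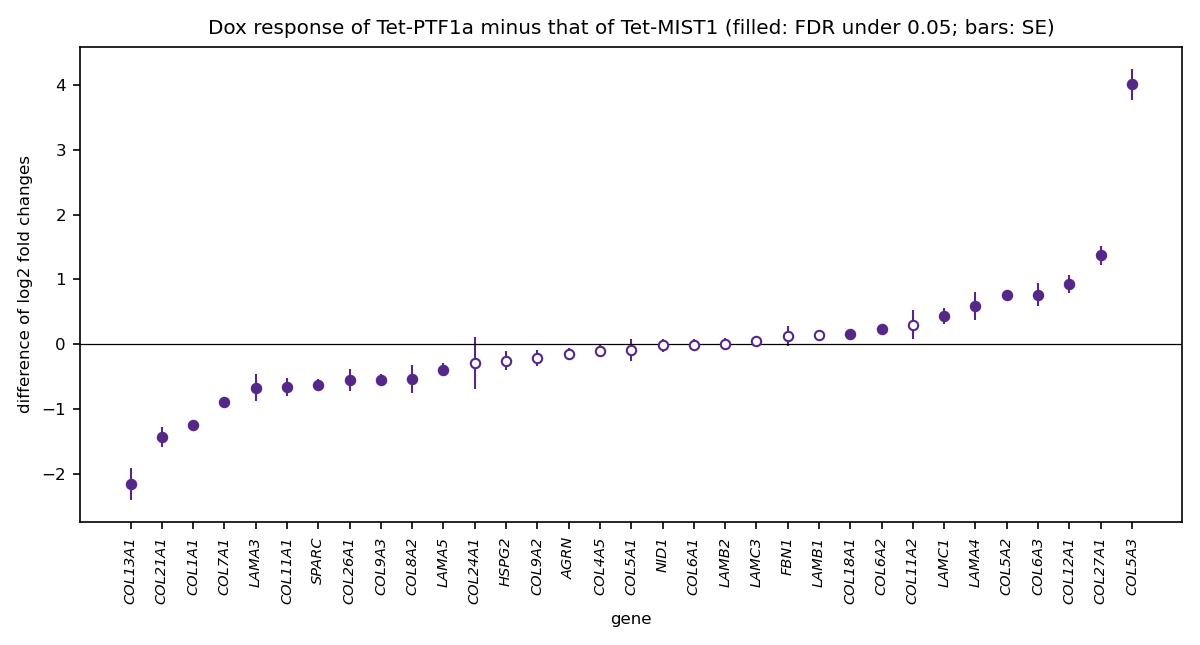
Difference between the Dox responses of Tet-PTF1a and Tet-MIST1 on the log2 scale for 33 of the 34 members tested, ordered by size, with the SE as a bar and filled points for an FDR under 0.05. It runs from -2.16 for COL13A1 to 4.01 for COL5A3, with 11 filled points below 0 and 9 above.

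Against the empty vector line, the response of Tet-PTF1a was larger in 4 of 34 members (COL5A3, COL27A1, COL5A2 and COL12A1) and smaller in 7 (COL13A1, COL21A1, COL1A1, LAMA3, COL9A3, COL8A2 and COL7A1), with 5.52% and 7.32% of all genes called in those directions. COL5A3 differed by 4.28 (SE 0.27, FDR 2.06e-08) and COL1A1 by -1.18 (SE 0.14, FDR 2.25e-05). Without Tet-One Dox replicate 1 the same 11 members passed and 12 more with them, among them HSPG2 at -1.04 (SE 0.069, FDR 4.51e-11) and NID1 at -0.35 (SE 0.043), for 7 larger and 16 smaller. The share of all genes called rose as well, from 12.8% with all libraries to 30.7% without that one. The response of Tet-MIST1 was larger than that of Tet-One in 1 of 39 members, COL26A1, by 1.06 (SE 0.24, FDR 0.033), and smaller in 0, with 1.48% and 0.187% of all genes called, 1.66% in all. With a difference of at least 1 these shares were 0.339% and 0.00721%. At an unadjusted p under 0.05 edgeR gave 3 smaller members, and DESeq2 called 0 smaller. The call of COL26A1 was lost on removal of 12 of the 16 libraries, taken singly. Without Tet-One Dox replicate 1 there were 2 larger and 7 smaller members, HSPG2 (-0.77), LAMC3 (-0.47), AGRN (-0.45), COL6A2 (-0.36), NID1 (-0.32), COL18A1 (-0.26) and COL17A1 (-1.35) among the latter and SPARC (0.62) the added larger one. In that fit 13.9% of all genes were called, against 1.66% with all libraries. These comparisons share the libraries of each line and are not independent of each other.

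The 3 clones also differed in their matrix genes before any Dox, although levels were scaled within each line and the differences between clones were not tested. COL18A1 led per length in each, at 160.4 ± 2.13 CPM per kilobase of exon in Tet-PTF1a Control, 199.7 ± 14.6 in Tet-One and 76.1 ± 4.32 in Tet-MIST1. NID1 came next in Tet-PTF1a at 52.7 ± 1.52, LAMB2 in Tet-One at 49.2 ± 1.86 and HSPG2 in Tet-MIST1 at 34.5 ± 4.75 CPM per kilobase. COL13A1 varied most, from 0.598 CPM in Tet-One and 2.44 in Tet-PTF1a to 46.8 in Tet-MIST1 Control, a 78.3-fold range. Its fall with PTF1a therefore began from a low level, and in Tet-MIST1, where it was abundant, it was at 46.8 ± 0.925 CPM in Control and 40.8 ± 4.01 in Dox with an FDR of 0.0502. SPARC ranged 71.9-fold, from 0.931 CPM in Tet-One to 11.4 in Tet-MIST1 and 66.9 in Tet-PTF1a. COL11A1 was at 63.5 CPM in Tet-PTF1a, 36.0 in Tet-One and 2.13 in Tet-MIST1, and COL5A2 at 141, 6.31 and 65.6 CPM. LAMC1, at 221 to 276 CPM, and COL11A2 varied least, 1.25-fold and 1.37-fold.

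**Figure D5:**
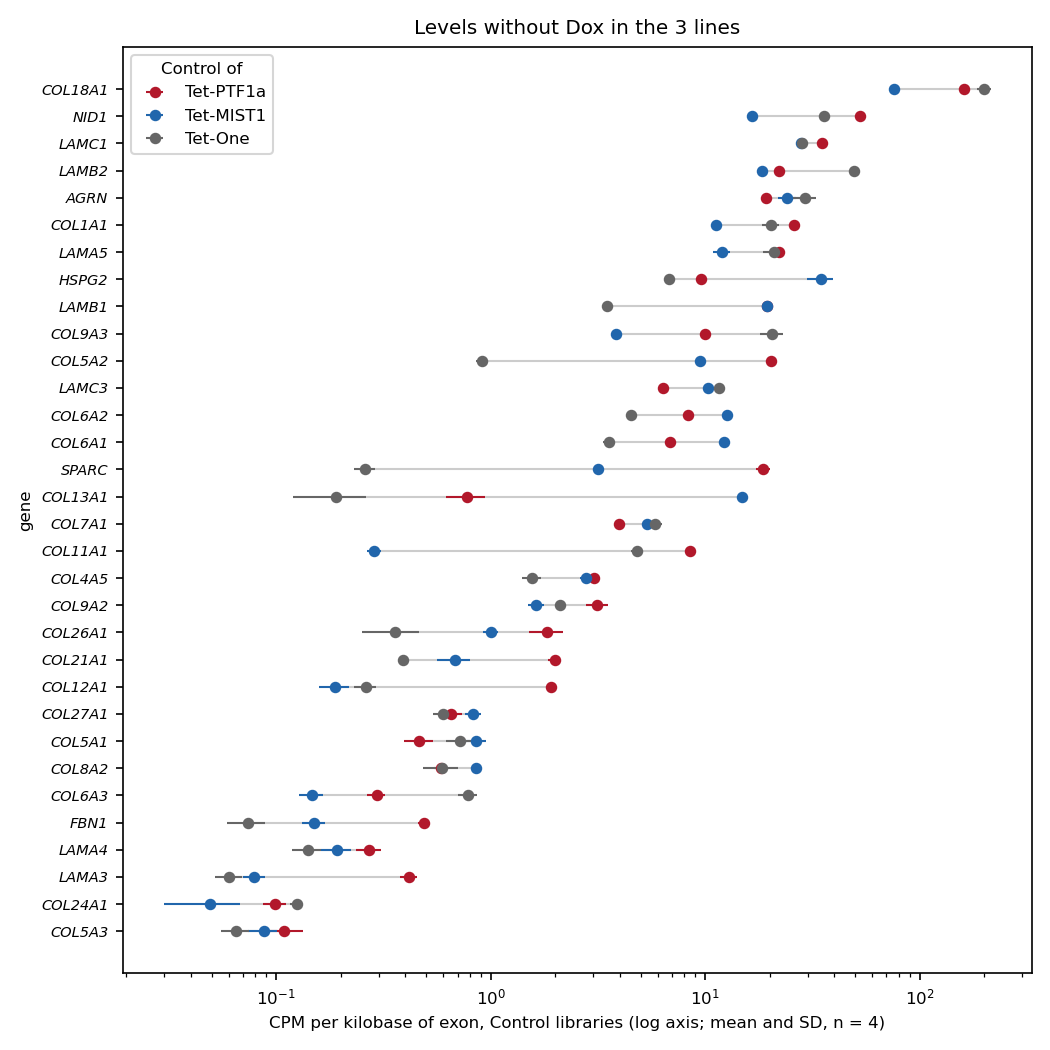
Level in the Control libraries of members listed in all 3 lines, 1 of them left out, in CPM per kilobase of exon on a log axis (mean and SD, n = 4), one colour per line. COL18A1 is highest in every line, and COL13A1, SPARC, COL11A1 and COL5A2 show the widest gaps between lines.

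Beyond the members, 4 lists of related genes were counted in the same fits. Of 33 genes of collagen processing, Tet-PTF1a Dox raised 13 and lowered 10, with a median change of 0.01. Over all genes of this line 23.8% were called higher and 24.4% lower, the shares against which this and the next 3 lists are to be read. ADAMTS2, an enzyme that removes the amino propeptide of fibrillar procollagens, rose from 0.368 ± 0.0683 to 7.43 ± 0.503 CPM, 16.8-fold (log2 change 4.07, SE 0.16, FDR 9.06e-29), and its relative ADAMTS14 from 1.16 ± 0.371 to 3.67 ± 0.517 CPM. LOXL4, a lysyl oxidase-like enzyme of the family that crosslinks collagen, rose by 1.17 on the log2 scale. Among 15 elastic fibre and microfibril genes 4 rose and 6 fell, with FBN3, another fibrillin, going from 0.393 ± 0.139 to 8.54 ± 0.730 CPM and the fibulins FBLN2 and EFEMP1 changing by 1.12 and -1.11. Among 16 non-integrin matrix receptors 3 rose and 7 fell, and CD44, the hyaluronan receptor, changed by -1.14. Among 9 other proteoglycans and link proteins 3 rose and 3 fell, HAPLN2 and BCAN rising by 3.36 and 2.75 from under 1 CPM and HAPLN3 changing by -1.06. In ADAMTS2, HAPLN2 and BCAN every Control library lay under 0.5 CPM, and in FBN3 and FBLN2 some did. These genes were therefore tested only because of their Dox libraries. A gene as rare that did not rise was not tested.

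In Tet-MIST1 these lists gave 6 higher and 3 lower of 30 collagen processing genes, 2 and 3 of 16 elastic fibre genes, 1 and 2 of 12 receptors, and 0 and 2 of 7 proteoglycans and link proteins, 1 of the elastic fibre genes passing a change of 1 on the log2 scale upward. Of all genes in this line 11.9% were called higher and 8.77% lower, and 0.404% passed a change of 1 upward. In Tet-One edgeR called 0 of 31, 12, 13 and 5 genes of the lists in that order, with 5 of these 61 genes at an unadjusted p under 0.05.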

How the data were processed

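Polyadenylated RNA of 24 Panc-1 libraries, 4 Control and 4 Dox of each of 3 lines grouped by their labels, was sequenced by the authors, aligned to hg19 with TopHat and deposited as 1 table per line. Per the labels HTSeq, DESeq and edgeR were also used, and the counting annotation and strand setting are not given in the sources used here. The authors deposited raw counts of reads per gene and CPM values over a scaled library size (a signal with no fixed total), which were not used, and log2 fold changes, p-values and FDRs of their own comparisons, also not used. Overlapping genes on opposite strands can therefore share reads. Exon lengths and positions are the tables' own. COL11A2 was left out of levels per length because its listed length adds up 6 alternate haplotypes.

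From the counts, edgeR 4.0.16 in R 4.3.3 (quasi-likelihood, robust, TMM, prior count 2) compared Dox with Control within each line, over genes that passed 0.5 CPM in 4 or more libraries of the line, with Benjamini-Hochberg adjustment over all genes tested and a call at an FDR under 0.05. The SE is the unshrunk log2 change over the root of F. Differences between lines were tested as the interaction of line and Dox. Adjusted p-values are those of edgeR except where DESeq2 1.42.0 is named. CPM in the text were computed here with the TMM factors of each line. The replicates are described by the study as biological, the labels give no separate cultures, and no pair of libraries agreed within counting noise (chi-square per degree of freedom of at least 1.38). Members, classes and lists (collagen processing, elastic fibre and microfibril genes, non-integrin receptors, other proteoglycans and link proteins, and epithelial, fibroblast and stellate, endothelial and leukocyte markers, written from general knowledge) were chosen with earlier results of these data known. Members singled out by rule were those called with a change of at least 1 on the log2 scale in Tet-PTF1a or 0.5 in Tet-MIST1, any called in Tet-One, and the highest per exon length in Control of each class, and of each other list up to 3 genes called in Tet-PTF1a with the largest changes of at least 1. The members of the first and second kind are given in every library and the class leaders partly as mean ± SD. The values per library of LAMA3 and HSPG2 and the means of other members were added after their values were seen. Alternatives were DESeq2, 3 other scalings, 2 other filters, a replicate block, removal of the trend with exon length, a prior count of 0.125, 1 fit over 24 libraries, a fold limit and each library left out. The scripts were tested on simulated counts. The values of 1 member, which the counts of members include, are not reported here or drawn.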

Additional observations from a re-analysis of the deposited data

Results flagged for a closer look

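Among 116 groups of 4 libraries examined (22 members given in full, by line and condition), 6 held a library whose gap to its nearest neighbour exceeded Dixon's critical share of the group's range, as chance alone gives in about 5% of groups. COL1A1 in Tet-MIST1 Dox replicate 2 was the highest of its group at 76.8 CPM (the next at 64.4), and COL6A2 in Tet-PTF1a Dox replicate 1 the lowest at 34.5 CPM (the next at 35.5). LAMA5 in Tet-One Control replicate 1 was the lowest at 199 CPM (the next at 251). The other 3 were in Tet-One Dox replicate 1, with LAMC1 lowest at 98.7 CPM (the next at 222), NID1 lowest at 112 CPM (the next at 221) and LAMA1 highest at 0.0258 CPM, which is 1 count against 0 in the others.

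Among the 22 members singled out by rule, the Dox responses of 2 lines differed in the interaction test of edgeR for those below, given as differences of log2 fold changes. The other members called in that test are counted in the comparisons of lines above. Between Tet-PTF1a and Tet-One they were 4.28 for COL5A3, 1.11 for COL27A1, -2.23 for COL13A1, -1.37 for COL21A1, -1.18 for COL1A1, -1.00 for COL9A3, -0.97 for COL8A2 and -0.97 for COL7A1. Between Tet-MIST1 and Tet-One the difference was 1.06 for COL26A1, a call that was lost on removal of 12 of the 16 libraries, taken singly. Between Tet-PTF1a and Tet-MIST1 they were 4.01 for COL5A3, 1.37 for COL27A1, 0.43 for LAMC1, 0.23 for COL6A2, 0.15 for COL18A1, -0.39 for LAMA5, -0.54 for COL8A2, -0.55 for COL9A3, -0.55 for COL26A1, -0.62 for SPARC, -0.89 for COL7A1, -1.25 for COL1A1, -1.43 for COL21A1 and -2.16 for COL13A1. The call of COL18A1 (FDR 0.030) was lost in 14 of 27 alternatives, among them 10 of the 16 removals of a single library and the removal of the exon length trend, where the difference was 0.03 (FDR 0.69).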

How the results depend on the processing

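Of 1102 alternative values of the 48 results for members given in full, 1007 kept their direction and their side of the threshold, 95 kept their direction and lost the call, and 0 reversed. Counts of members moved by over 1.5 times as follows, and the cause was not tested, except that a fold limit can only remove calls. The fit over 24 libraries also holds 34 of the 42 members tested in Tet-PTF1a. The share of all genes called moved as well. It went from 48.2% to 23.2% in Tet-PTF1a over 24 libraries and from 20.6% to 10.7% in Tet-MIST1 with the replicate block. Without Tet-One Dox replicate 1 it went from 12.8% to 30.7% for Tet-PTF1a and from 1.66% to 13.9% for Tet-MIST1, each against Tet-One. In Tet-PTF1a the 13 higher became 5 in the fit over 24 libraries, and with a log2 change of at least 1 there were 4 higher and 4 lower. In Tet-MIST1 the 1 higher became 2 with DESeq2, 3 with the exon length trend removed, 3 with that and the replicate block, 0 with the fold limit and 1 to 3 with a library left out, and the 11 lower became 6 with the replicate block, 6 over 24 libraries, 0 with the fold limit and 6 to 13 with a library left out. For Tet-PTF1a against Tet-One, 4 larger and 7 smaller became 2 and 4 with the fold limit, 3 to 7 and 7 to 16 with a library left out, 13 smaller with the length trend removed, also with the replicate block, and 7 and 16 with the trend removed and without Tet-One Dox replicate 1, an alternative chosen after seeing the data. For Tet-MIST1 against Tet-One, 1 larger and 0 smaller became 0 larger with the replicate block, 2 smaller with the length trend removed, 0 to 2 larger and 0 to 7 smaller with a library left out, and 3 and 5 with the trend removed and without Tet-One Dox replicate 1. For Tet-PTF1a against Tet-MIST1, 9 larger and 12 smaller became 2 and 3 with the fold limit and 7 to 10 and 10 to 12 with a library left out. Same-numbered Control and Dox libraries did not deviate together (correlations from -0.24 to 0.18). With 4 libraries per group this cannot show whether same-numbered cultures were handled together, and the labels do not say. Depth limits the rarest members, such as COL10A1 at 5 to 55 counts per library in Tet-PTF1a and COL17A1 at 18 to 41 in Tet-MIST1.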
